A study of Mus musculus with 12 samples.

Results

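The genes described here encode the proteins of the mitochondrial ribosome. They were taken as every gene symbol that begins with Mrpl or Mrps and a digit, with pseudogene symbols left out, which gave 78 of the 55228 symbols measured. All 78 passed a minimum of 1 TPM, a measure of transcript abundance corrected for length and library total, on average over the libraries, and they were tested together with the other genes that passed, 15043 in all. RNA came from cultured regulatory T cells (Tregs) of NOD.Foxp3-GFP mice, a diabetes-prone strain in which a green reporter marks Foxp3, the transcription factor that defines Tregs. Lymph node CD4+ cells of 16 mice were pooled and divided into 3 parts. Each part was sorted for Foxp3.GFP+CD25+ cells and activated on its own, and these 3 cultures are the replicates, so p-values measure the spread between cultures of 1 pool and not between animals. The labels give no ages, and the study's methods give an age range for donors of other NOD strains but not for these mice.

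In every group the cells carried a retroviral vector with the surface marker Thy1.1, added on day 2, had grown in IL-2 until day 4, and were sorted for Thy1.1 on day 9. EV no IL-2 cells carried the empty vector and were kept for the last 5 days without IL-2, and EV+IL-2 cells carried the same vector and stayed in IL-2. The 1G12t and 3A10t cells were without IL-2 like EV no IL-2, but their vector encoded an orthogonal IL-2 variant, 1G12 or 3A10, joined by a CD25-derived linker to a mutated IL-2 receptor β chain. The endogenous IL-2 receptor was present in all 4 groups. EV+IL-2 against EV no IL-2 compares cells that stayed in IL-2 with cells kept 5 days without it. A gene said to rise there was higher in EV+IL-2, and a fall after withdrawal gives the same difference. Each construct against EV no IL-2 is compared with the empty vector, without IL-2 on either side. 3A10t against 1G12t compares both constructs in the same medium.

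Mitochondria keep their own ribosome, which translates the few messenger RNAs of mitochondrial DNA into core subunits of the respiratory chain and ATP synthase. Its proteins are all encoded in the nucleus, made in the cytosol and imported, and they assemble with mitochondrial ribosomal RNA into a small subunit, which reads the messenger RNA, and a large subunit, which forms the peptide bond. Some of the proteins descend from bacterial ribosomal proteins and others were added in the mitochondrial lineage, and activated T cells are known to depend on mitochondrial translation for growth. Of the 78 genes, 26 encode small subunit proteins and 51 large subunit proteins, 46 of them with a bacterial counterpart and 31 particular to mitochondria. The remaining gene, Mrps36, carries the name but encodes a subunit of the 2-oxoglutarate dehydrogenase complex.

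The genes lay on 17 chromosomes, and what they shared in sequence was sought in the promoter windows of RefSeq on GRCm38.p6, which cover 250 bases before and 50 bases after a gene's start. Windows were found for 69 of the 78 genes, 75 windows in all. The following sequences are the 150 bases upstream of the start of 4 of the 5 genes called higher in EV+IL-2 against EV no IL-2. These 4 have a window and are shown because they were called. In the sequences, capitals mark matches to the motifs searched. They lie at chr14:54426759-54426908 for Mrpl52, chr5:31613801-31613950 for Mrpl33, chr6:125192050-125192199 for Mrpl51 and chr4:155802728-155802877 for Mrpl20, all on the plus strand. The starts are those of RefSeq. For Mrpl33 and Mrpl51 these stretches lie inside the gene positions given below, which come from another annotation, GENCODE. The fifth gene is Mrps28.
Mrpl52: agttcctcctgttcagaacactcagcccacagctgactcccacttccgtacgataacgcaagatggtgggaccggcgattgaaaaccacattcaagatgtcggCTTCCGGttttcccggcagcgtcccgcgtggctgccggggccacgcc
Mrpl33: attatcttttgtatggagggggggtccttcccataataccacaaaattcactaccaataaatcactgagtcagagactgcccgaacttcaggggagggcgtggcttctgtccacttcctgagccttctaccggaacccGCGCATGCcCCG
Mrpl51: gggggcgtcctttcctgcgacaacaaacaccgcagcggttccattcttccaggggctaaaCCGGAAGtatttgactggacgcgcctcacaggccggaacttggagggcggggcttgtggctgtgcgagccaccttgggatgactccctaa
Mrpl20: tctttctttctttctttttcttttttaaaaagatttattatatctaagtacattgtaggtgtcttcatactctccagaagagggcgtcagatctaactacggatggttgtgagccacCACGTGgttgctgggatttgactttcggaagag

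In Mrpl52 the capitals mark the ETS motif CCGGAAG on the minus strand, 47 bases before the start, and in Mrpl51 the same motif on the plus strand, 90 bases before the start. In Mrpl33 they mark the core of the NRF1 motif, GCGCATGC, 12 bases before the start, and the first 3 bases of an ETS match that runs across the start. In Mrpl20 they mark the E-box CACGTG, 33 bases before the start, so that no motif is common to these 4 sequences. Over the 300 bases and both strands, the ETS motif was found in 34.7% of the windows of the 78 genes, against 18.9% of the windows of all protein-coding genes tested and 8.86% of all windows. The NRF1 core was found in 10.7% of their windows, against 5.53% and 2.71%, and the YY1 motif AAGATGGC in 16.0%, against 4.74% and 2.75%. The E-box was found in 9.33%, against 10.0% and 7.15%, but overlapping windows of Mrpl2 are counted there, and per gene it was found in 5 of 69, or 7.25%, against 1057 of 8794 protein-coding genes tested and 8.09% of all genes with a window. NRF1 and ETS factors are known as regulators of nuclear genes for mitochondrial proteins, but a match is a description of letters and not a bound site.

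Levels were compared between genes as scaled TPM, that is, TPM, which are already divided by transcript length, divided further by a factor per library. The mean level over the 12 libraries ran from 12.6 scaled TPM for Mrpl1 to 275 for Mrps21, a ratio of 21.8, with a median of 80.4. The median over all genes tested was 13.3. Small subunit genes had a median of 68.4 and large subunit genes of 83.1, and genes with a bacterial counterpart had a median of 85.6 against 64.9 for those particular to mitochondria. After Mrps21, a small subunit protein with a bacterial counterpart, the next levels were 248 for Mrpl33, 213 for Mrpl42 and 206 for Mrps24. In EV no IL-2 the values of Mrps21 were 276, 262 and 222, those of Mrpl33 222, 225 and 184, those of Mrpl42 202, 207 and 170, and those of Mrps24 197, 200 and 168, so each of these neighbours overlapped the next. At the other end Mrpl1, a protein of the stalk beside the exit of transfer RNA, was followed by Mrpl47 at 17.5, Mrps31 at 20.9 and Mrpl50 at 25.7. In EV no IL-2 the values of Mrpl1 were 13.4, 12.6 and 12.1, those of Mrpl47 17.4, 16.9 and 15.0, those of Mrps31 23.1, 20.5 and 19.8, and those of Mrpl50 28.5, 26.5 and 25.4. These 4 did not overlap in that group.

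**Figure D1:**
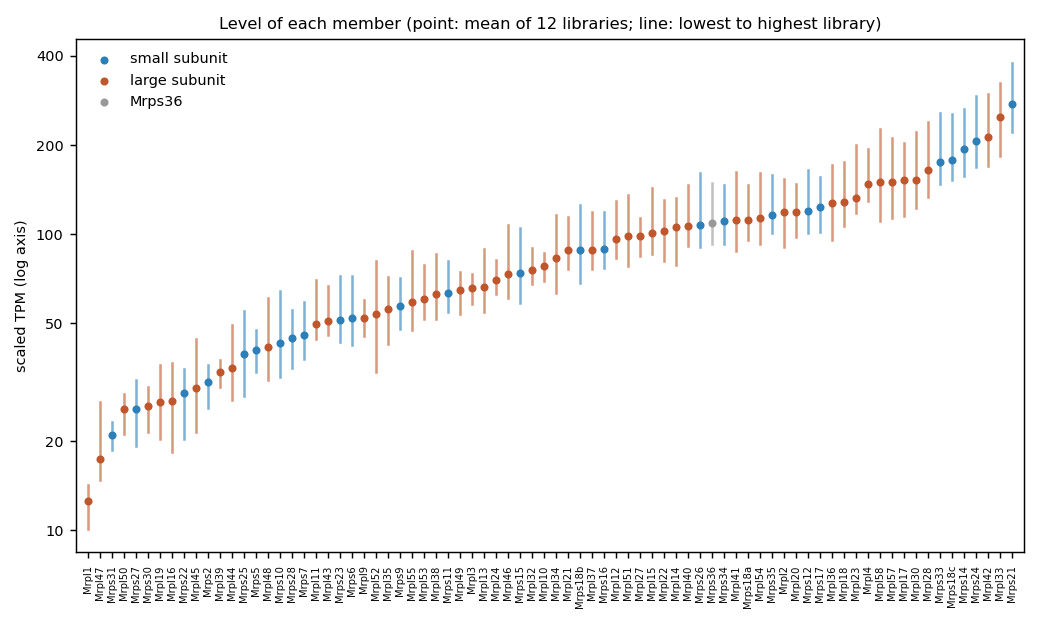
Level of each of the 78 genes in scaled TPM on a log axis, ordered by the mean over 12 libraries (points), with lines from the lowest to the highest library and colours for the subunits. The genes run from 12.6 (Mrpl1) to 275 (Mrps21), and small and large subunit genes are mixed along the whole range.

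The scaling factors ran from 0.854 to 1.09 and 30393 to 43285 symbols were above 0 in a library. The depth of a library cannot be read from TPM, so there is no counting error and the spread between 3 libraries is the only error. The library 3A10t replicate 2 stood apart, with the lowest factor, 13.5% of its TPM in its 10 most abundant genes, and the highest value of 12 libraries for 64 of the 78 genes. Treg markers were present in all libraries, with Foxp3 at 315 to 538 TPM as deposited. The summed TPM of 6 Treg markers was lowest in 3A10t, at 1363 to 1934, and it was 2174 to 2262 with IL-2, 2004 to 2139 with 1G12t and 1872 to 2078 in EV no IL-2. 4 B cell markers summed to 14.7 to 29.4 TPM, and 2 CD8 T cell markers to 3.71 to 5.72. 5 myeloid markers summed to 482 to 653, of which Cst3, which many cell types express, made up 480 to 651. The more specific markers Lyz2, S100a8 and S100a9 did not exceed 1.01, and Csf1r did not exceed 1.86. 6 erythroid markers summed to 24.9 to 38.4 in EV+IL-2 and to 1.89 to 3.63 elsewhere. The part of these differences in the results was not tested, and in bulk libraries fewer cells of a type and less RNA per cell cannot be told apart.

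Together the 78 genes made up 0.653% to 0.804% of all TPM. The shares were 0.705%, 0.703% and 0.653% in the EV no IL-2 libraries and 0.715%, 0.756% and 0.713% in those kept in IL-2. They were 0.687%, 0.677% and 0.676% with 1G12t, and 0.686%, 0.804% and 0.706% with 3A10t. All 3 shares in EV+IL-2 were above all 3 in EV no IL-2 and in 1G12t, whereas the 3A10t shares overlapped those of EV no IL-2 and, by the value of replicate 1, those of 1G12t. The group means were 0.732% ± 0.0631 in 3A10t and 0.728% ± 0.0242 in EV+IL-2, against 0.687% ± 0.0293 in EV no IL-2 and 0.680% ± 0.00652 in 1G12t (SD, n = 3). On the log2 scale, the median deviation of the 78 genes from their own means was 0.00, −0.02 and −0.18 in the EV no IL-2 libraries and 0.05, 0.13 and 0.00 in those with IL-2. It was −0.07, −0.14 and −0.18 with 1G12t and −0.03, 0.43 and 0.08 with 3A10t. The genes thus moved largely as a block from library to library, also within a group: EV no IL-2 replicate 3 had the lowest value of its group for 66 of the 78 genes, and 3A10t replicate 2 the highest of its group for 73. The median deviation of protein-coding genes tested was 0.01 in EV no IL-2 replicate 3 and −0.06 in 3A10t replicate 2. Counts of genes highest or lowest in a library use scaled TPM, and 3A10t replicate 2 had the lowest factor, 0.854. Such counts were not made over all genes tested. The median coefficient of variation of a gene was 17.1% in 3A10t, and it was 5.72% with IL-2, 6.60% with 1G12t and 7.88% in EV no IL-2.

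**Figure D2:**
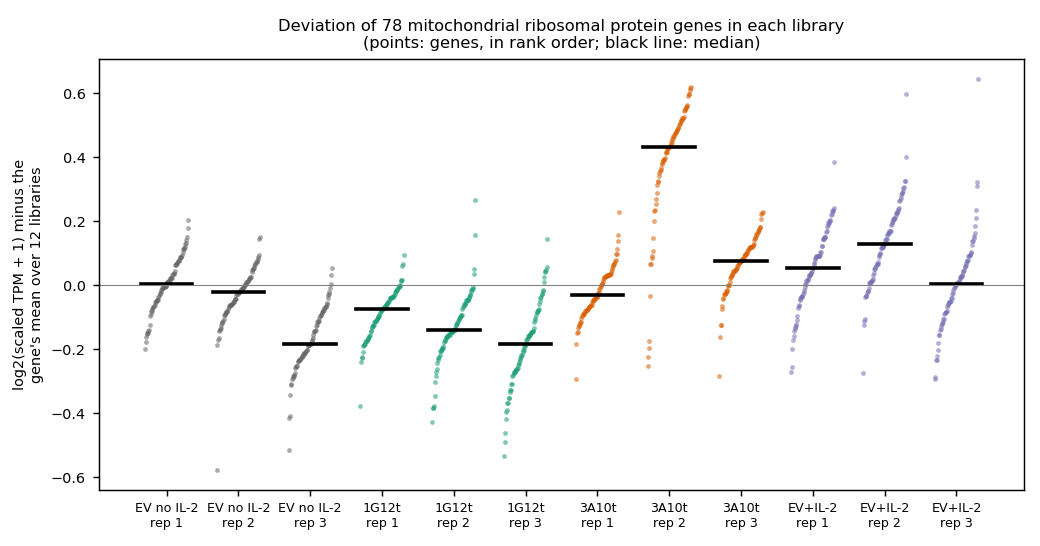
Deviation of each of the 78 genes from its own mean over 12 libraries, as log2(scaled TPM + 1), in each library, with genes as points in rank order and the median as a black line. The medians run from −0.18 in EV no IL-2 replicate 3 and 1G12t replicate 3 to 0.43 in 3A10t replicate 2, whose points lie above those of most other libraries.

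In EV+IL-2 against EV no IL-2, 5 of the 78 genes rose and none fell at an adjusted p under 0.05 (limma over all genes tested, Benjamini-Hochberg). They were Mrpl52, Mrpl33, Mrpl51, Mrps28 and Mrpl20. These are 6.41% of the 78 genes, below the background of 8.17% of all genes tested that rose, and 5.13% of all genes fell. At an unadjusted p under 0.05 the numbers were 10 higher and 1 lower, with a background of 13.9% and 12.4%. The study's own threshold, p under 0.01 with no adjustment and more than 0.25 between groups on the log2 scale, gave 6 higher and 0 lower, against 8.99% and 6.10% of all genes. The count of called genes therefore did not set the 78 genes apart. The differences were small and mostly in 1 direction. The log2 fold change was positive for 60 of 78, against 45.9% of all genes. Of protein-coding genes with a median transcript under 1000 bases, 52.1% were positive. The 78 genes had a median of 0.12 against −0.01 over all genes tested. That median was 0.07 without EV no IL-2 replicate 3, 0.08 without EV+IL-2 replicate 2, 0.05 with TPM as deposited, without the factor per library, and 0.06 with quantile normalization, where those of all genes were −0.07 and −0.03. All 3 EV+IL-2 libraries lay above all 3 EV no IL-2 libraries for 33 of the 78 genes, or 42.3%, against 19.6% of all genes, and below them for 1, Mrpl38, against 20.0%.

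Mrpl52, a large subunit protein particular to mitochondria (chr14:54426909-54429756, GRCm38), had the largest difference of the 78. It was at 44.9, 34.3 and 35.9 scaled TPM in EV no IL-2 and at 67.8, 78.8 and 81.5 in EV+IL-2. The groups were well apart, with means of 38.4 ± 5.72 and 76.0 ± 7.24 (SD, n = 3). The log2 fold change was 0.97 (SE 0.14, adjusted p = 0.00097), on the log2(scaled TPM + 1) scale that holds for all fold changes here. In 1G12t its values were 45.3, 41.7 and 42.7, and in 3A10t 54.3, 69.7 and 49.1, so that 3A10t lay between the IL-2 groups by its mean, and above all EV no IL-2 and 1G12t libraries. Mrpl33 (chr5:31596935-31664384), the counterpart of bacterial L33, was already the second most abundant member without IL-2. It was at 222, 225 and 184 scaled TPM in EV no IL-2 and at 289, 324 and 284 in EV+IL-2, a log2 fold change of 0.51 (SE 0.10, adjusted p = 0.0067). Its 1G12t values of 225, 220 and 228 lay close to EV no IL-2, and its 3A10t values of 238, 289 and 249 lay above both.

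The other 3 called genes differed less. Mrpl51 (chr6:125191801-125196269), also particular to mitochondria, was at 87.3, 88.1 and 81.1 in EV no IL-2 and at 113, 118 and 114 in EV+IL-2 (log2 fold change 0.43, SE 0.12, adjusted p = 0.042). Mrps28 (chr3:8802146-8923918), the only small subunit protein among the 5, was at 45.5, 41.2 and 35.4 and then at 51.5, 54.3 and 55.3 (0.40, SE 0.11, adjusted p = 0.043). Mrpl20 (chr4:155802878-155809975), the counterpart of a bacterial protein needed early in assembly of the large subunit, was at 113, 113 and 99.7 and then at 138, 145 and 134 (0.35, SE 0.10, adjusted p = 0.043). In each of the 3 genes the groups did not overlap. Their adjusted p passed the threshold in only 10 (Mrpl51), 9 (Mrps28) and 10 (Mrpl20) of 19 other ways of processing, with values up to 0.14, 0.17 and 0.16, while Mrpl52 and Mrpl33 passed in 19 of 19, with adjusted p up to 0.0081 and 0.035. Leaving out EV no IL-2 replicate 1 left 3 called genes, and leaving out any other library of the 2 groups left 2, while 5.57% to 6.60% of all genes rose in these fits. The annotation has exons of a microRNA gene, Mir3098, over Mrpl51 on the same strand, and reads are not divided between strands in this kind of library.

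**Figure D3:**
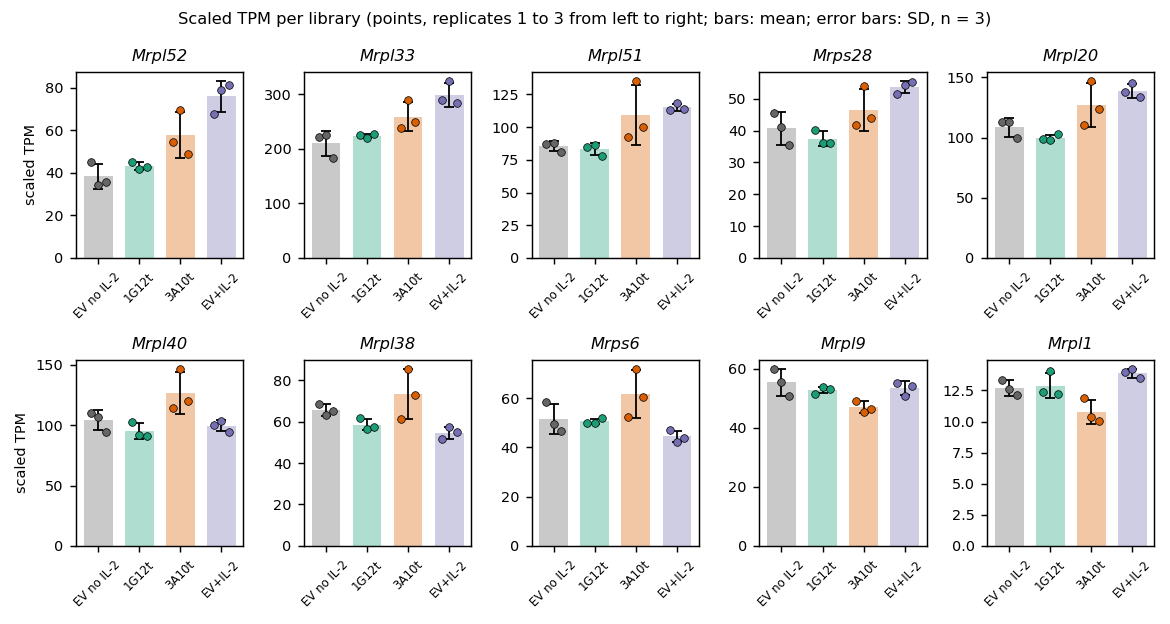
Scaled TPM of 10 genes in each library (points, replicates 1 to 3 from left to right), with bars for the mean and error bars for the SD (n = 3), in the 4 groups. Mrpl52 goes from a mean of 38.4 in EV no IL-2 to 76.0 in EV+IL-2, Mrpl40, Mrpl38 and Mrps6 are highest in 3A10t, and Mrpl9 and Mrpl1 are lowest there.

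By role, small subunit genes had a median log2 fold change of 0.09 with IL-2, positive for 18 of 26, and large subunit genes of 0.12, positive for 41 of 51. Genes with a bacterial counterpart had a median of 0.12, those particular to mitochondria 0.08. The stalk that recruits translation factors consists of Mrpl12 on its anchor Mrpl10, next to Mrpl11 at the base. Mrpl12 was at 94.3, 90.3 and 86.4 in EV no IL-2 and at 103, 115 and 103 in EV+IL-2 (0.24 on the log2 scale, adjusted p = 0.27). Mrpl10 differed by 0.10 and Mrpl11 by 0.15, both with an adjusted p of 0.50. All 3 stalk genes were higher in every EV+IL-2 library than in every EV no IL-2 library, but none passed the test. Mrpl45, which contacts the inner membrane, differed by 0.27 (adjusted p = 0.25).

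Some genes did not share the direction. Mrpl38 was at 68.5, 63.0 and 64.9 in EV no IL-2 and at 51.6, 57.3 and 55.0 in EV+IL-2 (log2 fold change −0.26, SE 0.11, adjusted p = 0.16). The groups did not overlap, but the difference did not pass the test. Mrps12, a protein of the decoding centre, was at 126, 122 and 101 and at 109, 120 and 109 (−0.04, adjusted p = 0.91), and Mrpl58, a peptidyl-tRNA hydrolase that frees stalled ribosomes, at 159, 164 and 140 and at 134, 154 and 125 (−0.16, adjusted p = 0.63). The smallest differences were those of Mrps36, Mrps27 and Mrpl44, each with a log2 fold change of 0.00 and SE of 0.11, 0.14 and 0.12. Mrps36, the gene that is not ribosomal, was at 113, 114 and 93.8 and at 106, 110 and 105.

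The 3 paralogs of bacterial S18 differed in level and in their values with IL-2. Mrps18c was the most abundant, with 159, 179 and 153 scaled TPM in EV no IL-2 and 172, 193 and 174 in EV+IL-2 (0.14 on the log2 scale, adjusted p = 0.59). Mrps18a, which sits in the large subunit despite its name, was at 112, 103 and 95.6 and at 118, 127 and 119 (0.23, adjusted p = 0.29). Mrps18b was at 88.7, 89.3 and 82.8 and at 85.4, 86.7 and 80.1 (−0.05, adjusted p = 0.88). None of the 3 passed the test, and only for Mrps18a were the groups apart.

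In 3A10t against EV no IL-2, none of the 78 genes passed at an adjusted p under 0.05 with limma, where 0.452% of all genes rose and 1.60% fell. At an unadjusted p under 0.05, 20 genes were higher, or 25.6%, against 10.9% of all genes, and 2 were lower against 15.1%. At the study's threshold 1 was higher and 0 were lower, against 2.83% and 6.67%. The log2 fold change was positive for 74 of 78 genes, against 52.9% of all genes, and the 26 small subunit genes were all positive. The median of the 78 was 0.24 against 0.03 over all genes tested. All 3 3A10t libraries lay above all 3 EV no IL-2 libraries for 19 genes, or 24.4%, against 13.3% of all genes, and below them for 2, Mrpl9 and Mrpl1, against 12.1%.

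The size of this difference rested on single libraries. Without 3A10t replicate 2 the median fell to 0.10, and without 3A10t replicate 1, which had the lowest value of its group for 59 of the 78 genes, 26 genes were higher and 2 lower at an adjusted p under 0.05, where 7.94% and 15.2% of all genes were. With TPM as deposited, without the factor per library, the median was 0.09, and that of all genes tested moved with it, from 0.03 to −0.09. Transcript length also moved with this comparison. Protein-coding genes with a median transcript under 1000 bases had a median log2 fold change of 0.07 and longer ones of −0.06, and the 78 genes have a median length of 847.75 bases against 1316 for protein-coding genes tested. Of the 4346 protein-coding genes with shorter transcripts, 58.5% were positive, and 664 were higher and 635 lower at an unadjusted p under 0.05. All 3 3A10t libraries lay above all 3 EV no IL-2 libraries for 724 of them, and below for 491. After a correction of the trend on length, the median of the 78 genes was 0.19.

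Mrpl52 again had the smallest p of the 78, with a log2 fold change of 0.57 (SE 0.14, adjusted p = 0.064). Mrpl13, a core large subunit protein with a bacterial counterpart, was at 64.4, 60.4 and 54.7 in EV no IL-2 and at 69.3, 89.2 and 69.3 in 3A10t (0.33, SE 0.11, adjusted p = 0.11). Mrps23, a small subunit protein particular to mitochondria, was at 49.7, 50.8 and 43.1 and at 54.7, 72.2 and 55.5 (0.33, SE 0.11, adjusted p = 0.11). In both, the 3A10t libraries were above all EV no IL-2 libraries and replicate 2 was the highest. Against the direction of most, Mrpl9, the counterpart of bacterial L9, was at 60.0, 55.3 and 50.8 in EV no IL-2 and at 49.1, 45.3 and 46.4 in 3A10t (−0.23, SE 0.08, adjusted p = 0.11). Mrpl1 went from 13.4, 12.6 and 12.1 to 11.9, 10.3 and 10.1 (−0.22, SE 0.09, adjusted p = 0.15). The other 2 genes with a negative value were Mrpl10 (−0.09) and Mrpl50 (−0.12), with overlapping groups and adjusted p of 0.46 and 0.47. Median transcripts were 1612 (Mrpl9), 3431 (Mrpl1), 1226 (Mrpl10) and 2114 bases (Mrpl50), longer than the 847.75 of the 78 genes. Across the 78, Pearson's r of the log2 fold change was −0.474 with log2 length and 0.390 with log2 level. Over 19 other ways of processing, values ran from −0.38 to −0.17 (Mrpl9), −0.36 to −0.03 (Mrpl1), −0.24 to −0.05 (Mrpl10) and −0.26 to −0.00017 (Mrpl50). The cause was not tested.

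**Figure D4:**
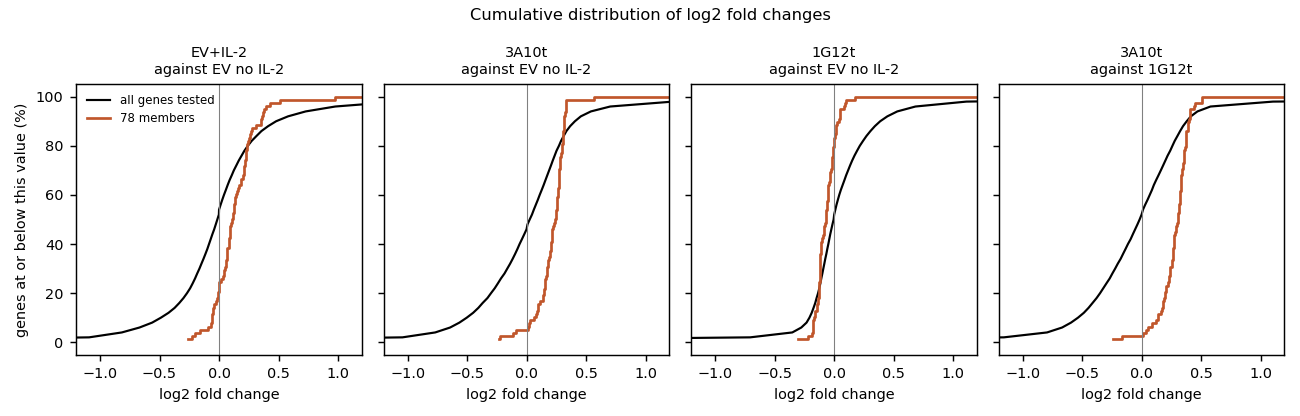
Cumulative share of genes in percent by log2 fold change, for the 78 genes and for all 15043 genes tested, in 4 comparisons. The curve of the 78 genes lies to the right of 0 for 60 genes in EV+IL-2 and 74 in 3A10t against EV no IL-2 and for 76 in 3A10t against 1G12t, and to the left for 63 where 1G12t is set against EV no IL-2, and it is steeper than the other curve.

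In 1G12t against EV no IL-2, none of the 78 genes passed at an adjusted p under 0.05 with limma, where 0.0133% of all genes rose and 0.00665% fell. At an unadjusted p under 0.05, 0 genes were higher and 1 was lower, against 5.32% and 1.72% of all genes. At the study's threshold the numbers were 0 and 0, against 1.13% and 0.226%. Positive log2 fold changes were found for 15 of 78 genes, against 48.1% of all genes. Of protein-coding genes with a median transcript under 1000 bases, 39.5% were positive. The median log2 fold change of the 78 was −0.07 against 0.00 over all genes tested. It was −0.03 without EV no IL-2 replicate 1, −0.13 without EV no IL-2 replicate 3 and −0.04 without 1G12t replicate 3. With TPM as deposited it was −0.03 and with quantile normalization −0.01, where those of all genes were 0.03 and −0.02. The 3 libraries with 1G12t were all higher than the 3 controls for 0 genes, against 8.68% of all genes, and all lower for 4, against 7.80%. The smallest p was that of Mrpl16, a large subunit protein near the site where the peptide bond forms. It was at 26.8, 25.7 and 26.6 in EV no IL-2 and with 1G12t at 24.9, 21.0 and 18.3, a log2 fold change of −0.30 (SE 0.13, adjusted p = 0.71). Mrpl38 (−0.16), Mrpl50 (−0.17) and Mrpl36 (−0.18) followed, with adjusted p of 0.75, 0.74 and 0.76. The largest positive value was that of Mrpl52, 0.18 (SE 0.14, adjusted p = 0.79).

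In 3A10t against 1G12t, none of the 78 genes passed at an adjusted p under 0.05 with limma, where 1.30% of all genes rose and 2.96% fell. With the replicate number, which marks a shared sort, as a block, 4 genes rose, against 2.31% of all genes. At an unadjusted p under 0.05 and without the block, 43 genes were higher, or 55.1%, against 14.0% of all genes, and 1 was lower against 15.7%. At the study's threshold 12 were higher, or 15.4%, against 5.29%, and 0 were lower against 7.06%. All 3 3A10t libraries lay above all 3 1G12t libraries for 40 genes, or 51.3%, against 13.7% of all genes, and below them for Mrpl9 and Mrpl1, against 12.5%. The log2 fold change was positive for 76 of 78 genes, against 47.4% of all genes, with a median of 0.30 against −0.02 over all genes tested.

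The same libraries moved this comparison. The median was 0.15 without 3A10t replicate 2, and with TPM as deposited it was 0.11, while that of all genes tested was −0.18. Without 3A10t replicate 1, 45 genes rose and 1 fell at an adjusted p under 0.05, where 11.6% and 15.7% of all genes did, and without 3A10t replicate 2 or replicate 3 no gene did, where 0.193% and 0.0864% of all genes rose. Protein-coding genes with shorter transcripts had a median of 0.07 and those with longer ones of −0.10, and with the length correction the median of the 78 genes was 0.25. Of the 4346 protein-coding genes with shorter transcripts, 57.2% were positive, and 985 were higher and 606 lower at an unadjusted p under 0.05. All 3 3A10t libraries lay above all 3 1G12t libraries for 967 of them, and below for 456.

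Mrpl40, a large subunit protein particular to mitochondria, was at 103, 92.0 and 91.2 in 1G12t and at 114, 147 and 120 in 3A10t (log2 fold change 0.40, SE 0.10, adjusted p = 0.053). Mrpl16 was at 24.9, 21.0 and 18.3 and at 25.6, 36.8 and 30.5 (0.51, SE 0.13, adjusted p = 0.055). Mrpl45 was at 26.5, 25.3 and 21.4 and at 30.5, 44.1 and 32.0 (0.51, SE 0.14, adjusted p = 0.058). Mrpl36, the counterpart of bacterial L36, a very short protein, was at 117, 104 and 95.3 and at 129, 171 and 135 (0.45, SE 0.13, adjusted p = 0.060). In each of the 4 genes all 3A10t libraries were above all 1G12t libraries, with replicate 2 the highest, and the adjusted p was just above the threshold. It passed in 4 (Mrpl40), 3 (Mrpl16), 5 (Mrpl45) and 5 (Mrpl36) of 19 other ways of processing, among them the one without 3A10t replicate 1, with values down to 0.011, 0.0070, 0.015 and 0.019 and up to 0.28 in each. An exon of Mrpl36 overlaps an exon of Ndufs6, a more abundant gene on the other strand at a mean of 337 TPM as deposited, and reads of the pair cannot be told apart by strand. The stalk genes Mrpl12 and Mrpl11 differed by 0.27 and 0.30 (adjusted p = 0.17 and 0.13), and Mrpl10, their anchor partner, by 0.01 (adjusted p = 0.93), with values of 69.3, 71.5 and 80.0 in 1G12t and 75.7, 75.9 and 71.1 in 3A10t.

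3A10t against EV+IL-2 set the construct beside the cytokine. At an adjusted p under 0.05, Mrps6, Mrpl38 and Mrpl40 were higher in 3A10t, 3 of 78 against 10.3% of all genes, and Mrpl1 was lower, against 13.0%. The median log2 fold change was 0.07, against 0.00 over all genes tested. With TPM as deposited it was −0.01 and with quantile normalization 0.14, where those of all genes were −0.07 and 0.01. Mrps6, a small subunit protein with a bacterial counterpart, was at 47.0, 42.4 and 44.0 in EV+IL-2 and at 52.5, 72.0 and 60.4 in 3A10t (0.45, SE 0.12, adjusted p = 0.020). Mrpl38, at 51.6, 57.3 and 55.0 in EV+IL-2, was at 61.5, 85.5 and 73.0 in 3A10t (0.41, SE 0.11, adjusted p = 0.022). Mrpl40 was at 100, 104 and 94.6 in EV+IL-2, below all its 3A10t values (0.34, SE 0.10, adjusted p = 0.039). Mrpl1, at 14.0, 14.2 and 13.5 in EV+IL-2, was above all its 3A10t values (−0.34, SE 0.09, adjusted p = 0.017). Mrpl52 was lower in 3A10t by its mean, 57.7 ± 10.7 against 76.0 ± 7.24, but the groups overlapped and the adjusted p was 0.059. Without 3A10t replicate 2, none of the 78 genes was higher and 5 were lower at an adjusted p under 0.05, where 7.28% and 10.4% of all genes were, and the median was −0.03. Without 3A10t replicate 1, 14 were higher and 1 lower, against 14.2% and 19.9%, and the median was 0.17. Without 3A10t replicate 3, none was higher or lower, against 7.48% and 9.34%, and the median was 0.12. Without EV+IL-2 replicate 1, 1 was higher and 0 were lower, against 5.26% and 7.39%. Without EV+IL-2 replicate 2 the numbers were again 1 and 0, against 6.85% and 9.00%, with a median of 0.11, and without EV+IL-2 replicate 3 they were 0 and 1, against 6.99% and 9.11%.

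Across the 4 groups, 56 of the 78 genes had their highest group mean in 3A10t and 21 in EV+IL-2, and 56 had their lowest in 1G12t. These shares were not computed over all genes tested. The place of 3A10t leaned on 1 library: replicate 2 was the highest of 12 libraries for 64 of the 78 genes and replicate 1 for 0. Without 3A10t replicate 2 the median against EV+IL-2 was −0.03. EV no IL-2 held the highest mean of 1 gene, Mrpl9, and 3A10t the lowest of 2, Mrpl9 and Mrpl1.

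Other genes of mitochondrial translation were tested in the same libraries. The 5 proteins of the mitochondrial ribosome that have no Mrp symbol had median log2 fold changes of 0.07 in EV+IL-2 and 0.13 in 3A10t against EV no IL-2. With TPM as deposited the latter was −0.02, where that of all genes tested was −0.09. None of the 5 was called in either comparison with limma. Of all genes, 8.17% rose and 5.13% fell in EV+IL-2, and 0.452% rose and 1.60% fell in 3A10t. Dap3, a GTP-binding small subunit protein, was at 128, 126 and 113 in EV no IL-2, at 108, 111 and 98.0 in EV+IL-2 and at 126, 165 and 131 in 3A10t. Its values were lower with IL-2 in every library (log2 fold change −0.21, adjusted p = 0.24), and it rose in 3A10t against EV+IL-2 (0.40, SE 0.11, adjusted p = 0.021). Ptcd3, an RNA-binding small subunit protein, was at 58.3, 64.4 and 62.2 in EV no IL-2 and at 56.3, 31.2 and 35.4 in 3A10t (−0.62, SE 0.18, adjusted p = 0.085), so the 3A10t libraries 2 and 3 were far below the others. Gadd45gip1, a large subunit protein, fell in 3A10t against EV+IL-2 (−0.39, SE 0.10, adjusted p = 0.017), from 21.9, 23.0 and 18.7 to 16.2, 17.2 and 14.4. Chchd1 and Aurkaip1 differed by 0.25 and 0.07 with IL-2 (adjusted p = 0.30 and 0.68).

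None of the 9 translation factors, 17 aminoacyl-tRNA synthetases, 22 assembly and rRNA modification factors, 6 transcription and mRNA stability factors or 2 mitochondrial rRNAs passed in EV+IL-2 against EV no IL-2 with limma, where 8.17% of all genes rose and 5.13% fell. At an unadjusted p under 0.05, 1 factor of assembly was higher and 2 lower, 1 translation factor was lower and 0 of the other lists passed. Of all genes tested, 13.9% were higher and 12.4% lower at that threshold. The median log2 fold changes of these lists, in the order given, were −0.07, −0.03, −0.05, −0.09 and −0.24, all below 0. That of the 78 genes was 0.12 and that of all genes tested −0.01. In 3A10t against EV no IL-2 the medians of the lists were −0.02, −0.06, 0.05, −0.19 and −0.18, against 0.24 for the 78 genes and 0.03 for all genes tested. There 1 translation factor was lower at an adjusted p under 0.05 with limma, where 1.60% of all genes were. In 3A10t against 1G12t the medians were 0.05, −0.04, 0.11, −0.10 and −0.22, against 0.30 for the 78 genes and −0.02 for all genes tested. Again 1 translation factor was lower at that threshold, against 2.96% of all genes. With TPM as deposited translation and assembly factors were at −0.12 and −0.07, against 0.11 for the 78 genes and −0.18 for all genes tested. With quantile normalization translation factors were at 0.19, assembly factors at 0.21 and synthetases at 0.05, against 0.22 for the 78 genes, so that the first 2 lists were then close to the ribosomal proteins. In 3A10t against EV+IL-2 the assembly factors had a median of 0.10 and translation factors of 0.07, against 0.07 for the 78 genes, and of 0.22 and 0.13 against 0.14 with quantile normalization. At an adjusted p under 0.05 with limma, 4 assembly factors were higher there and 1 lower, and 1 synthetase was higher and 1 lower. Also lower were 2 translation factors and 1 factor of transcription and mRNA stability. Of all genes, 10.3% were higher and 13.0% lower. The largest positive value with IL-2 was that of Noa1, a GTPase for ribosome assembly, at 26.6, 24.9 and 24.2 and then 33.9, 33.2 and 33.1 (0.39, SE 0.13, adjusted p = 0.082). The largest negative ones were those of Mettl17, an assembly factor, at 146, 150 and 130 and then 108, 114 and 102 (−0.39, SE 0.14, adjusted p = 0.094), and of mt-Rnr1, the small subunit rRNA. The latter was at 6933, 3924 and 4238 and then at 3738, 3521 and 4508 (−0.32, SE 0.22, adjusted p = 0.43), and these rRNA values come from libraries primed on poly(A) tails.

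**Figure D5:**
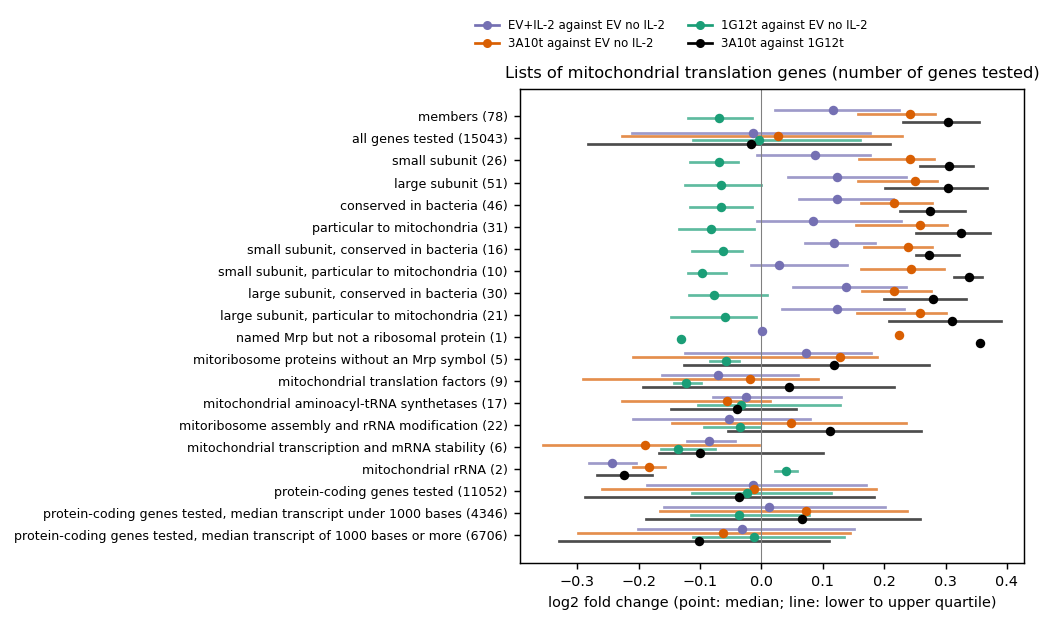
Median log2 fold change (points) and range from lower to upper quartile (lines) of the lists of mitochondrial translation genes and of all genes tested, in 4 comparisons, with the number of genes tested in brackets. The lists of ribosomal proteins have positive medians in EV+IL-2 and in 3A10t, 0.12 and 0.24 for all 78, while the translation factors, synthetases, assembly factors, transcription and mRNA stability factors and rRNAs have medians below 0 in EV+IL-2. The median of all genes tested is −0.01 there.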

How the data were processed

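The values are TPM, transcript abundance corrected for length and library total, per gene symbol in 12 libraries of bulk RNA. Per the labels and the study's methods, cDNA was primed with oligo(dT), amplified and cut by a transposase, and the authors trimmed reads (cutadapt 1.18), aligned them to mm10 (STAR 2.5.3) and estimated the deposited TPM with RSEM 1.3.0; use of strand was not given in the sources used here. The authors tested counts with DESeq2, which are not used here. TPM keep no depth, so precision rests on 3 libraries a group.

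Groups and replicates were taken from the sample labels. The 15043 genes tested were those that averaged 1 TPM or more. TPM were divided by median-of-ratios factors over those of them that were above 0 in every library. limma 3.58.1 (R 4.3.3, lmFit and eBayes with a trend) was run on log2(scaled TPM + 1) with 1 mean per group, all 12 libraries and no block, for 5 comparisons, with Benjamini-Hochberg adjustment over all genes and a threshold of 0.05. Fold changes on this scale understate those of low genes. The code was tested on simulated data. Gene positions and types came from GENCODE M21 on GRCm38 (53569 of the symbols found), promoter windows from RefSeq on GRCm38.p6. Python 3.11.15 and matplotlib 3.10.9 drew the plots.

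The members, gene lists, tests and alternatives were chosen with earlier results of these data known. Named were the 4 highest and 4 lowest genes by level, up to 8 largest positive and 5 largest negative among those called in EV+IL-2 against EV no IL-2 and the 3 nearest to 0, the 4 smallest p in each direction of the other comparisons, 12 genes with known roles, 5 ribosomal proteins without an Mrp symbol and the 2 largest in each direction of the other lists, of which a gene is not reported here. Other ways of processing were no filter on low values or an average of 5 TPM, pseudocounts of 0.1 and 5, quantile normalization, unscaled TPM, factors from protein-coding genes or those genes only, the 6 libraries compared, a replicate block, no trend, a length correction (lowess, span 0.3) with and without the block, and each library left out.

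The labels give the replicate number as a shared sort of 1 pool, so the numbers pair the libraries. Over 18 pairs with the same number, deviations from group means had a mean correlation of 0.041 (−0.11 to 0.15, 3 over 0.1). Over 36 pairs with different numbers it was −0.020 (−0.13 to 0.13, 2 over 0.1).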

Additional observations from a re-analysis of the deposited data

How the results depend on the processing

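Of 95 medians of the 78 genes recomputed under the alternatives, 4 moved by 0.138 or more, the pooled SD of the median between libraries of a group. The SD was 0.243 in 3A10t and 0.0548 to 0.102 in the other groups. The pooled value exceeds the medians themselves in EV+IL-2 (0.12) and 1G12t (−0.07) against EV no IL-2 and in 3A10t against EV+IL-2 (0.07). For these the count cannot show stability. The range was 0.05 to 0.14 in EV+IL-2, 0.09 to 0.34 in 3A10t and −0.13 to −0.01 in 1G12t, each against EV no IL-2. It was 0.11 to 0.40 in 3A10t against 1G12t and −0.03 to 0.17 in 3A10t against EV+IL-2. The cause of the changes that follow was not tested. The share of all genes called in the same fit stands in brackets.

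In EV+IL-2 against EV no IL-2, 2 genes instead of 5 rose without a filter on low TPM (1.90%), with factors from protein-coding genes (7.77%) and without a trend (7.90%), 11 rose and 1 fell with only the 6 libraries compared (11.9% and 9.67%), and 1 fell with TPM as deposited (6.97%). Leaving out 1 library gave 2 to 3 (5.57% to 6.60%). In 3A10t against EV no IL-2, 1 rose instead of 0 with a filter at an average of 5 TPM (0.667%) and with protein-coding genes only (1.35%), the median was 0.0947 with TPM as deposited, and leaving out 1 library gave 0 to 26 higher (0.0532% to 7.94%), 0 to 2 lower (0.0997% to 15.2%) and a median of 0.102 to 0.336. In 3A10t against 1G12t, 6 rose with the filter at 5 TPM (4.97%), 7 with protein-coding genes only (4.70%), 4 with the replicate block (2.31%) and 3 with the replicate block and length correction (1.46%), instead of 0 (1.30%). With TPM as deposited 2 fell (8.64%) and the median was 0.114, and leaving out 1 library gave 0 to 45 higher (0.0665% to 11.6%), 0 to 1 lower (0.179% to 15.7%) and a median of 0.148 to 0.397. In 3A10t against EV+IL-2, 5 rose instead of 3 with quantile normalization and with length correction and replicate block (11.3% in both), and 0 with only the 6 libraries compared (6.37%). There 6 fell instead of 1 with TPM as deposited (14.9%), 2 with protein-coding genes only (19.4%) and with length correction, without (12.8%) or with (13.8%) the replicate block, and 0 with only the 6 libraries compared (6.35%). Leaving out 1 library gave 0 to 14 higher (5.26% to 14.2%) and 0 to 5 lower (7.39% to 19.9%). The replicate block changed no other count of the 78 genes by over 1.5 times.

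Of 740 values of single genes, 643 kept their direction and side of the threshold, 41 newly passed it, 52 no longer did and 4 turned direction. Of these, in 1G12t against EV no IL-2 Mrpl33 was −0.00046 and Mrpl14 −0.018 without EV no IL-2 replicate 3, the lowest of ranges that reached 0.15 and 0.15 with 1 library left out, and in 3A10t against 1G12t Mrpl1 was 0.00084 with the length correction, with and without the replicate block. TPM keep no depth, so low genes such as Mrpl1 have no known counting error.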

Other observations

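Pseudogene symbols of the family were left out of the 78 genes, but 1 of them was abundant. Mrpl23-ps1 had a mean of 80.8 TPM as deposited (68.3 to 95.5 over 12 libraries), Mrpl48-ps 14.4, Mrps36-ps1 3.57, Mrps36-ps2 2.98 and Mrps36-ps3 0.333. Reads of a processed pseudogene and its parent can be divided between them by the counting, so the values of Mrpl23, Mrpl48 and Mrps36 are uncertain in that respect.

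Exons of 32 of the 78 genes overlap exons of another listed gene, and for 24 of them that gene had a mean of at least 1 TPM. In 5 the overlap is on the same strand, among them Mrps24 with Urgcp at 32.2 TPM and Mrps34 with Nme3 at 38.6. Mrpl46 and Mrps11, both members, overlap each other on opposite strands, at 73.6 and 63.4 TPM. Mrpl18 overlaps Tcp1, a chaperonin subunit at 180 TPM, on the opposite strand.

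The comparisons EV+IL-2 against EV no IL-2 and 3A10t against 1G12t share no library. Across the 78 genes, which are not independent replicates and share libraries within each comparison, Pearson's r between the log2 fold changes was 0.238 and Spearman's rho 0.302, and over all genes tested they were 0.0842 and 0.167.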
